A study of Mus musculus with 6 samples.

Results

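The genes described here are 47 components of the TGF-beta and BMP signalling pathways, measured by RNA-seq in the mouse cornea among 55421 genes with a count entry. They were picked by gene symbol through the GENCODE M21 annotation of GRCm38. They comprise 11 ligands, 4 latent TGF-beta binding proteins, 11 receptors, 7 antagonists, 6 Smads that transmit the signal, 4 inhibitory Smads and Smurf ubiquitin ligases, and 4 Id genes. Enough counts for a test were found for 43 of them. Corneas of mice aged 20 weeks were compared between wildtype animals (3 libraries, W1 to W3) and animals heterozygous for a Pax6 mutation (3 libraries, M1 to M3). The series gives the 3 libraries of a genotype as biological replicates, and its title names aniridia-related keratopathy. Neither the Pax6 allele nor the strain, nor how many corneas made up a library, is stated in the labels.

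TGF-beta, activin and BMP ligands are secreted dimers that bring type I and type II receptor kinases together at the cell surface. The activated type I receptor phosphorylates Smad2 and Smad3 (TGF-beta and activin) or Smad1, Smad5 and Smad9 (BMP), which enter the nucleus with Smad4. Id genes are textbook targets of the BMP branch, and Smad6 and Smad7 are feedback inhibitors. In the cornea TGF-beta is known for its part in wound healing, myofibroblast formation and scarring. Pax6 is the paired-box transcription factor of eye development and of the corneal epithelium, and its loss from a single allele causes aniridia.

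Library totals ran from 16858005 to 21846406 gene counts. Pax6 stood at 849, 746 and 774 CPM (counts scaled by TMM to a common library total) in W1 to W3 and at 454, 394 and 356 CPM in M1 to M3. The groups did not overlap, and Pax6 was 1.97-fold lower in mutant corneas (log2 fold change -0.98 ± 0.14 SE, adjusted p = 0.00421; edgeR quasi-likelihood test, Benjamini-Hochberg over 15209 tested genes). W1 stood apart, at 122 on the axis of largest variance (50% of it), with W2 and W3 at 23.2 and 18.3 and the mutant libraries between -67.2 and -39.2. In W1 melanocyte and iris markers summed to 9.82 CPM against 189 to 417 CPM elsewhere, and vascular endothelial markers to 11.4 CPM against 59.5 to 185 CPM. W3 held 1361 CPM of retinal markers, against 10.6 to 59.9 CPM elsewhere. M1 alone held abundant Xist RNA (1140 CPM) and no Y-linked RNA.

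The 10 corneal epithelial markers summed to 38719 to 53242 CPM in wildtype and 20497 to 26932 CPM in mutant libraries, but did not move together. Of these, Krt12, Tkt and Upk1b fell (log2 fold changes -1.82 ± 0.27 SE, -1.83 ± 0.20 SE and -1.20 ± 0.12 SE) and Krt14 rose 4.01-fold. The other 6 were not called, with Krt5 at -0.59 ± 0.19 SE, Aldh3a1 at -0.78 ± 0.21 SE, Klf5 at 0.51 ± 0.18 SE, and Ehf, Trp63 and Cdh1 at 0.12 ± 0.12 SE, 0.03 ± 0.12 SE and 0.06 ± 0.14 SE. The 12 keratocyte and stromal markers summed to 487 to 759 CPM in wildtype and 1252 to 5164 CPM in mutant libraries, with W1 lowest and M1 highest. These did not move together either: 5 were called higher, Aldh1a1 was called lower (log2 fold change -1.46 ± 0.28 SE) and 6 were not called. Col1a1 and Col1a2 held the most in M1, at 2704 and 1319 CPM. Those not called included Kera and Lum, which overlapped (2.47 ± 0.81 SE and 2.32 ± 0.70 SE), and Pdgfra (-0.19 ± 0.20 SE). Leukocyte markers summed to 46.1 to 70.02 CPM and 198 to 236 CPM, and conjunctival and goblet cell markers to 5122 to 8594 CPM and 16252 to 17553 CPM. Of 9 and 7 tested, 6 and 6 were called higher, against 5.59% of all tested genes. Cd68 was not (log2 fold change 0.13 ± 0.28 SE). Itgam, at 23.8 to 42.8 CPM and 82.6 to 103 CPM, shares 68.7% of its exon bases with another gene of its strand. Muc4 of the conjunctival list was not called (adjusted p = 0.0869) and held 4605 to 8235 CPM in wildtype and 9928 to 10433 CPM in mutant libraries. Every one of these markers had counts in at least 1 library. In bulk RNA, fewer cells of a type and less RNA per cell cannot be told apart. The part of these marker shifts in the changes below was not tested.

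**Figure D1:**
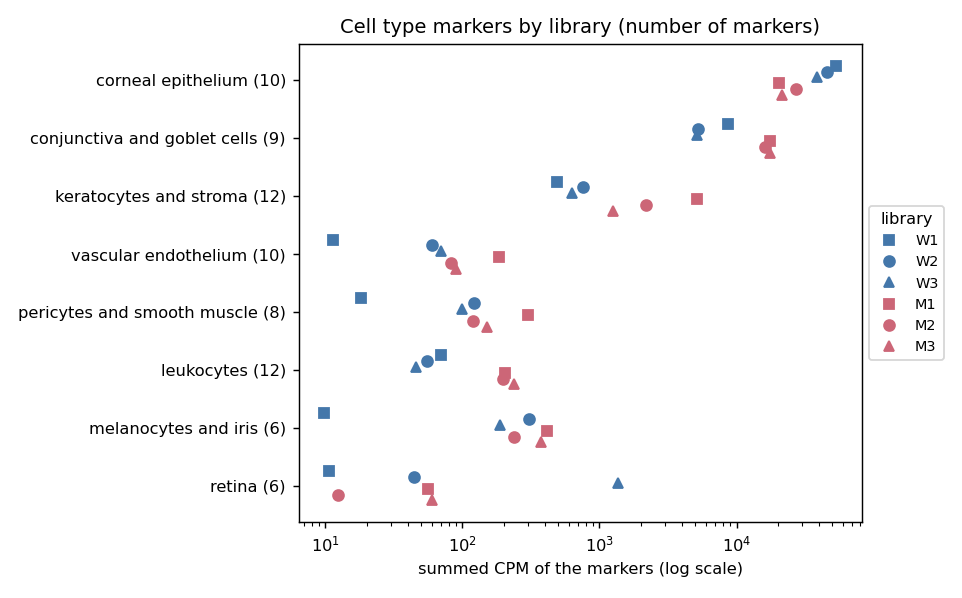
Summed CPM (log axis) of the markers of 8 cell types in each library, with the number of markers in brackets, blue for wildtype and red for Pax6 heterozygous libraries. The sums of stromal and leukocyte markers were higher in all mutant than in all wildtype libraries. W1 was lowest for stromal, vascular, pericyte, melanocyte and retinal markers, and W3 held 1361 CPM of retinal markers.

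Of the 43 tested genes of the pathway, 9 rose and 3 fell in mutant corneas at an adjusted p under 0.05. These were 20.9% and 6.98% of them, and 27.9% were called in either direction. Over all 15209 tested genes 5.59% rose and 4.46% fell, 10.1% in all. The genes that rose were the ligands Bmp3 and Inhbb, the latency proteins Ltbp1, Ltbp2 and Ltbp4, the receptors Tgfbr2 and Acvrl1, the activin antagonist Fst, and Smad1. Those that fell were the type I TGF-beta receptor Tgfbr1 and the Id genes Id2 and Id4. The median log2 fold change was 0.37 over the 43 genes and 0.0095 over all tested genes.

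Single libraries moved these counts. The number that rose was 5 without M1 or without W3, 4 without M2 or without M3, and 14 without W1, and the number that fell was 2 to 4 with any library left out. All 12 calls held without W1, which was the lowest of the 6 libraries for 6 of the 9 genes that rose. W1 was lowest for 23 of the 43 genes (53.5%) and for 28.8% of all tested genes. The libraries of the genotypes did not overlap for 24 of the 43 (55.8%), with 18 higher and 6 lower in mutant corneas. Among all tested genes 31.9% did not overlap, 17.1% higher and 14.7% lower. Inhbb, Ltbp4, Tgfbr2, Smad1 and Id2 remained called under all 18 alternatives of normalization, test, filter, threshold and library.

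**Figure D2:**
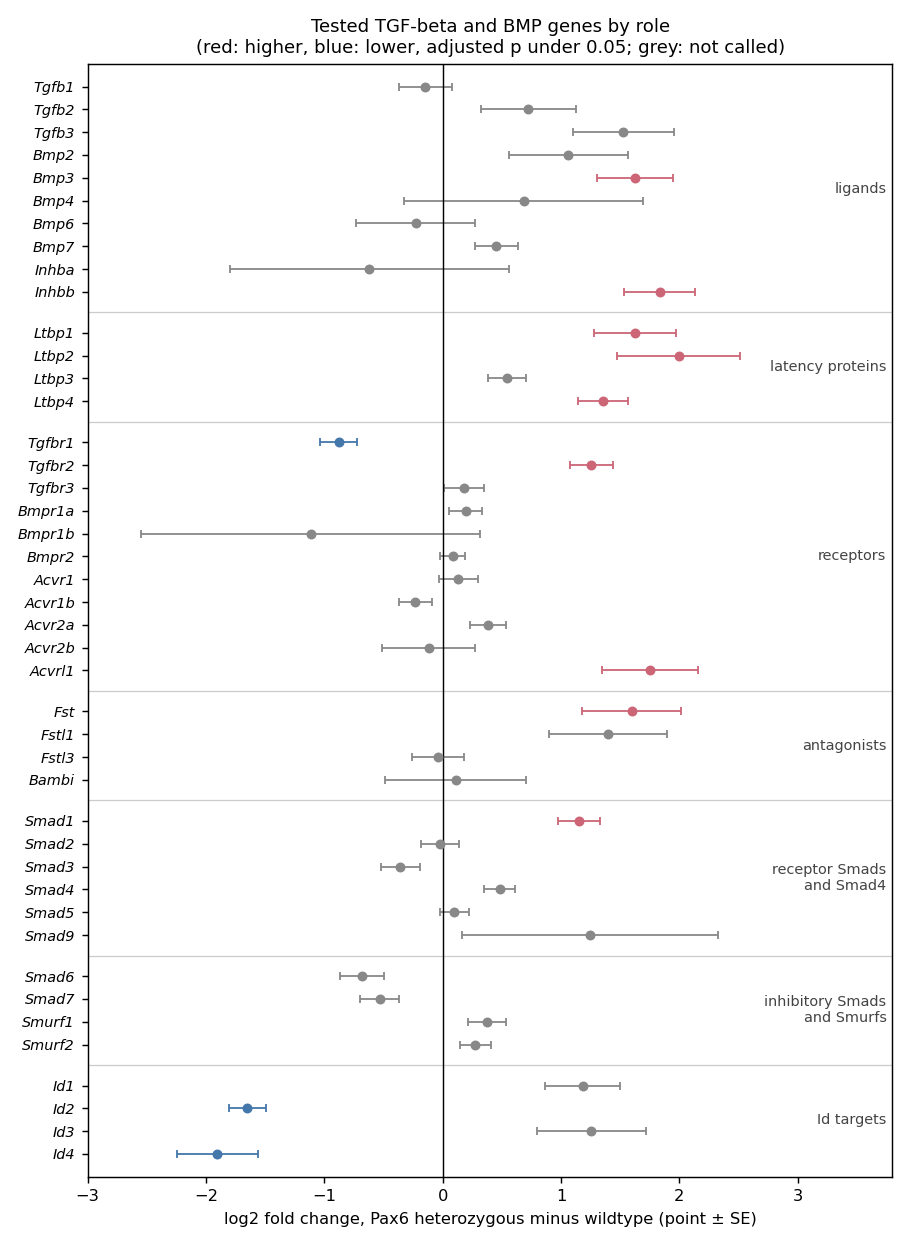
Log2 fold change (Pax6 heterozygous minus wildtype, point ± SE) of the 43 tested genes by role, red for those that rose, blue for those that fell and grey for those not called. The called genes lie between -1.90 (Id4) and 1.99 (Ltbp2).

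Among the ligands, 2 of 10 tested rose (20%) and none fell, against 5.59% and 4.46% of all tested genes. Inhbb (ENSMUSG00000037035, chr1:119415465-119422248, minus strand of GRCm38) encodes the beta B subunit of activins and inhibins. It stood at 4.08, 5.62 and 4.39 CPM in W1 to W3 and at 23.3, 13.2 and 13.8 CPM in M1 to M3. Every mutant library lay above every wildtype library and M1 was highest, a log2 fold change of 1.84 ± 0.30 SE (adjusted p = 0.00808). Bmp3 (ENSMUSG00000029335, chr5:98854415-98884396, plus strand) is an atypical BMP known to antagonize other BMPs. Its level was 2.55, 3.69 and 4.76 CPM in wildtype and 13.1, 11.8 and 9.18 CPM in mutant libraries, without overlap (log2 fold change 1.63 ± 0.32 SE, adjusted p = 0.0176). The call of Bmp3 ended without M1 (0.0755), M2 (0.0727), M3 (0.0509) or W2 (0.0576), with adjusted p in brackets.

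None of the 3 TGF-beta ligands passed the test. Tgfb1, the isoform most studied in scarring, was at 43.2, 27.3 and 30.9 CPM in wildtype and 33.7, 34.3 and 23.7 CPM in mutant libraries. The groups of Tgfb1 overlapped (log2 fold change -0.15 ± 0.22 SE). Tgfb2, the main isoform of the aqueous humour, was at 9.36, 28.1 and 29.5 CPM and 40.6, 26.8 and 43.2 CPM, with W1 far below the rest (adjusted p = 0.325). Tgfb3 was at 2.89, 10.7 and 8.24 CPM in wildtype and 25.5, 19.3 and 18.2 CPM in mutant libraries. Its groups did not overlap, but the adjusted p was 0.0603 (log2 fold change 1.53 ± 0.43 SE), and 0.0174 without W1.

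Bmp7, which eye development requires, ranged from 14.1 to 18.3 CPM in wildtype and 19.1 to 23.5 CPM in mutant libraries, without overlap and without passing the test (adjusted p = 0.167). Bmp2 overlapped, at 3.35 to 9.42 CPM and 5.49 to 16.96 CPM (adjusted p = 0.25). Bmp4 and Bmp6 were under 5 CPM in every library, with log2 fold changes of 0.68 ± 1.01 SE and -0.23 ± 0.50 SE. Inhba, the activin beta A subunit, had 0 to 31 counts in wildtype and 6 to 16 counts in mutant libraries. Bmp5 was not tested: it had 4 counts in W3 and 0 elsewhere. A count of 0 over the mutant libraries allows up to 3 counts, 0.053 CPM, for counting error only.

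Latent TGF-beta binding proteins hold the inactive TGF-beta complex in the extracellular matrix. Of these 4 genes 3 rose, and the genotypes did not overlap for any of the 4. Among all tested genes 5.59% rose, and 17.1% were higher in mutant libraries without overlap. Ltbp4 (ENSMUSG00000040488, chr7:27305136-27337692, minus strand) was at 102, 90.2 and 78.9 CPM in wildtype and 310, 182 and 202 CPM in mutant libraries, a log2 fold change of 1.36 ± 0.21 SE (adjusted p = 0.00693). Ltbp1 (ENSMUSG00000001870, chr17:75005568-75392512, plus strand) was at 9.25, 27.6 and 18.6 CPM and 67.2, 51.7 and 52.04 CPM (log2 fold change 1.62 ± 0.35 SE, adjusted p = 0.0237). W1 was the lowest library of Ltbp1. Ltbp2 (ENSMUSG00000002020, chr12:84783212-84876532, minus strand), which is known to bind fibrillin and not latent TGF-beta, was at 2.04, 9.65 and 5.13 CPM and 29.2, 13.98 and 23.9 CPM (log2 fold change 1.99 ± 0.52 SE, adjusted p = 0.0489). Ltbp3 was at 99.6, 88.6 and 85.4 CPM and 163, 111 and 123 CPM, with an adjusted p of 0.0758, and of 0.0492 without W1.

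The call of Ltbp1 ended without M1 (0.0878), M2 (0.0693), M3 (0.0829) or W3 (0.0678), adjusted p in brackets. That of Ltbp2 ended without M1 (0.16), M2 (0.0758), M3 (0.16) or W3 (0.125), and with upper-quartile factors, no composition factors, or mitochondrial and small structural RNA genes removed (0.0504 to 0.0613). Without W2 the log2 fold change of Ltbp2 was 2.63. Per length, Ltbp4 ranked 6 of the 47 genes in wildtype corneas at a mean level of 13.98 RPKM (CPM per kb of annotated exon) and 1 in mutant corneas at 35.8 RPKM. M1 was the highest library of all 4 latency genes and of the stromal marker sum, and it alone held abundant Xist RNA and no Y-linked RNA. The part of the stroma or of sex in these values was not tested.

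The TGF-beta receptors changed in opposite directions. Tgfbr1 (ENSMUSG00000007613, chr4:47353222-47414931, plus strand), the type I receptor kinase that phosphorylates Smad2 and Smad3, stood at 106, 114 and 118 CPM in W1 to W3 and at 49.2, 72.5 and 62.2 CPM in M1 to M3. It fell 1.84-fold, without overlap (log2 fold change -0.88 ± 0.16 SE, adjusted p = 0.0109). Tgfbr2 (ENSMUSG00000032440, chr9:116084293-116175360, minus strand), the type II receptor that binds ligand and activates Tgfbr1, stood at 26.8, 31.1 and 31.4 CPM and at 90.04, 57.99 and 65.1 CPM. It rose 2.38-fold, without overlap and with M1 highest (log2 fold change 1.25 ± 0.18 SE, adjusted p = 0.00509). The call of Tgfbr1 ended without M3 (0.0589), and that of Tgfbr2 held whichever library was left out.

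Within a library, the counts of Tgfbr2 were 0.253, 0.273 and 0.266 times those of Tgfbr1 in W1 to W3 and 1.83, 0.8 and 1.05 times in M1 to M3. The mean ratio was 0.264 ± 0.0103 (SD, n = 3) in wildtype and 1.23 ± 0.537 (SD, n = 3) in mutant libraries. Such a ratio does not depend on how libraries are scaled. The pair was chosen after its values were seen, so no test is given.

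**Figure D3:**
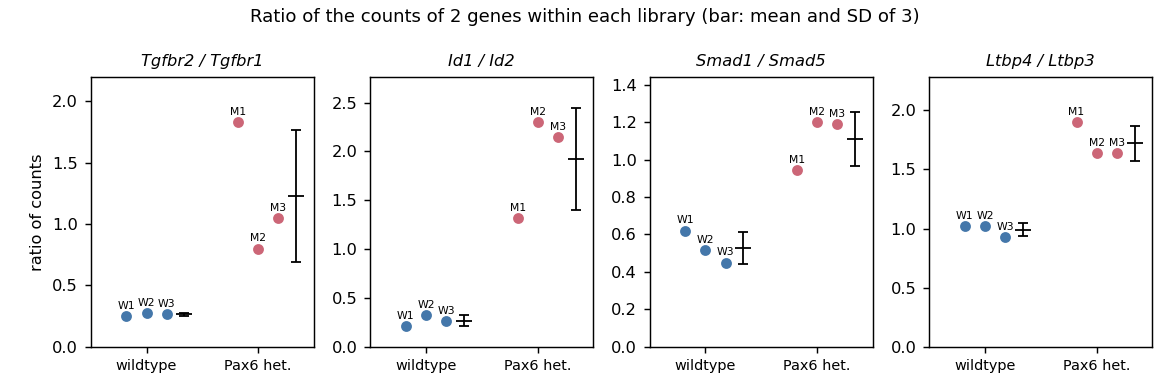
Ratio of the counts of 2 genes within each library for 4 pairs, with each library as a point and the mean and SD of 3 libraries as a bar. The ratio of Tgfbr2 to Tgfbr1 was 0.253 to 0.273 in wildtype and 0.8 to 1.83 in mutant libraries, and that of Id1 to Id2 was 0.21 to 0.324 and 1.32 to 2.3.

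The start regions of this receptor pair are shown because the genes moved in opposite directions. Each spans 300 bases from RefSeq on GRCm38.p6, 250 before and 50 after the start, at chr4:47352972-47353271 (Tgfbr1, plus strand) and chr9:116175314-116175613 (Tgfbr2, minus strand). They are written 5′ to 3′ on the strand of the gene. Capitals mark GGCGCC, a palindromic GC-rich motif of BMP-responsive elements, or CAGACA on either strand, a Smad box with its flank.
Tgfbr1: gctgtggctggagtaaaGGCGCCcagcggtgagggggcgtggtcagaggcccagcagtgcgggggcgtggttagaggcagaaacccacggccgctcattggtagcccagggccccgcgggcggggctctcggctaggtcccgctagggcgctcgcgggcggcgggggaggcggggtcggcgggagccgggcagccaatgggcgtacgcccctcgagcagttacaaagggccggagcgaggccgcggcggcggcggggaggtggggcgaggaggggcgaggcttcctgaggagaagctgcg
Tgfbr2: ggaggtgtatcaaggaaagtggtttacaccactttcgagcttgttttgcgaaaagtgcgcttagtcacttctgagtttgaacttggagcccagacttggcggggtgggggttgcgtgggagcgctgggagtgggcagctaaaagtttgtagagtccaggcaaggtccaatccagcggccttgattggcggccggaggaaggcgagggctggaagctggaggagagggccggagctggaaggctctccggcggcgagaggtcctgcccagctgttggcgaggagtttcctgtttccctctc
Tgfbr1 held GGCGCC 1 time, and Tgfbr2 held neither motif as written here, though CAGAC followed by T occurs in it and is not marked. The GC content was 74.7% for Tgfbr1 and 59% for Tgfbr2.

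Acvrl1 (ENSMUSG00000000530, chr15:101128522-101145336, plus strand), the type I receptor ALK1 known from endothelial cells, also rose. It was at 2.16, 5.51 and 3.32 CPM in wildtype and 16.6, 11.3 and 9.18 CPM in mutant libraries, without overlap (log2 fold change 1.75 ± 0.41 SE, adjusted p = 0.0313). The call ended without M1 (0.125), M2 (0.0915), M3 (0.0748) or W3 (0.0895). The 10 vascular endothelial markers summed to 11.4 to 69.6 CPM in wildtype and 82.6 to 185 CPM in mutant libraries, lowest in W1 and highest in M1 as for Acvrl1. None of the 10 was called by itself, and for 4 of them every mutant library lay above every wildtype library. The part of these markers in the rise of Acvrl1 was not tested. Eng, the ALK1 co-receptor of endothelium, overlapped at 0.908, 12.2 and 5.46 CPM and 33.9, 16.04 and 10.4 CPM (adjusted p = 0.234), and is named after its values were seen. Acvr1b, an activin type I receptor 28.7 kb further along the same strand, overlapped at 67.04 to 89.1 CPM and 64.5 to 70.95 CPM.

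The other 8 receptors did not pass the test. Bmpr2, the type II BMP receptor, varied little, at 185, 183 and 188 CPM in wildtype and 210, 186 and 193 CPM in mutant libraries (log2 fold change 0.08 ± 0.11 SE). The type I BMP receptor Bmpr1a (77.6 to 115 CPM over all libraries), the co-receptor Tgfbr3 (69.8 to 108 CPM) and the type I receptor Acvr1 (14.98 to 19.5 CPM) had log2 fold changes of 0.19 ± 0.14 SE, 0.18 ± 0.17 SE and 0.13 ± 0.17 SE. Acvr2a, a type II activin receptor, was at 19.1 to 23.1 CPM and 25.04 to 28.9 CPM, without overlap (adjusted p = 0.168). Acvr2b, its close relative, ranged from 2.89 to 6.37 CPM and the type I receptor Bmpr1b from 0 to 1.87 CPM over all libraries.

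Secreted antagonists bind ligands before they reach a receptor. Of 7 listed antagonists 4 could be tested, and Fst alone rose (25%, against 5.59% of all tested genes). Fst (ENSMUSG00000021765, chr13:114452290-114458951, minus strand) encodes follistatin, which traps activins, and was at 4.31, 4.54 and 1.71 CPM in wildtype and 13.9, 9.21 and 8.87 CPM in mutant libraries. The groups did not overlap, and the call lay at the threshold (log2 fold change 1.60 ± 0.42 SE, adjusted p = 0.0498). It ended without M1 (0.176), M2 (0.117), M3 (0.128), W2 (0.0809) or W3 (0.0744), and with RLE factors, upper-quartile factors, or mitochondrial and small structural RNA genes removed (0.0514 to 0.0528). Fstl1, a follistatin-like glycoprotein, was at 4.99, 26.97 and 22.1 CPM and 53.6, 44.6 and 44.4 CPM. Its groups did not overlap, with W1 far below the rest, and the adjusted p was 0.127, and 0.00779 without W1. Fstl3, another activin antagonist, was at 8.88 to 12.3 CPM over all libraries and Bambi, a decoy receptor, at 1.14 to 5.34 CPM. The BMP antagonists Nog, Chrd and Grem1 were not tested, with 1 to 16, 1 to 19 and 0 to 19 counts per library.

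**Figure D4:**
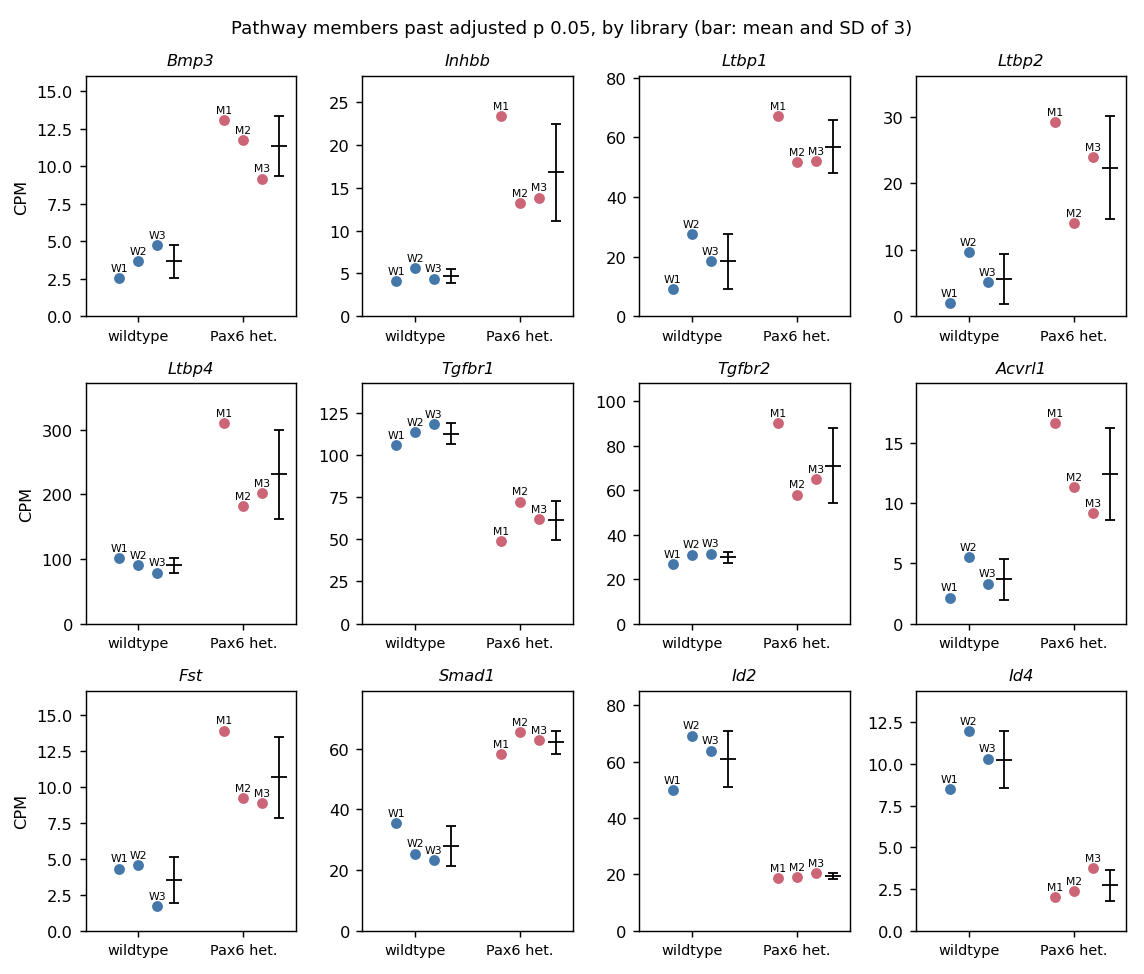
CPM in each library of the 12 genes past an adjusted p of 0.05, with points for libraries and a bar for the mean and SD of 3 libraries per genotype. The genotypes do not overlap for any of the 12, which were picked on these same libraries, nor for 31.9% of all tested genes. Bmp3, Inhbb, Ltbp1, Ltbp2, Ltbp4, Tgfbr2, Acvrl1 and Fst have their highest value in M1.

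Of the 6 Smads that transmit the signal 1 rose (16.7%) and none fell, against 5.59% and 4.46% of all tested genes. Smad1 (ENSMUSG00000031681, chr8:79338395-79399518, minus strand), of the BMP branch, was at 35.5, 25.4 and 23.2 CPM in wildtype and 58.1, 65.5 and 62.9 CPM in mutant libraries. It rose 2.22-fold, without overlap, and W1 was here the highest wildtype library (log2 fold change 1.15 ± 0.18 SE, adjusted p = 0.00651). The other BMP Smads did not pass the test, with Smad5 at 49.2 to 57.2 CPM in wildtype and 52.9 to 61.6 CPM in mutant libraries and Smad9 at 0 to 5.36 CPM over all libraries. Counts of Smad1 were 0.621, 0.517 and 0.45 times those of Smad5 in W1 to W3 and 0.942, 1.2 and 1.19 times in M1 to M3, a pair also chosen after its values were seen.

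Smad2 and Smad3, of the TGF-beta and activin branch, did not pass the test. Smad2 was at 31.7 to 43.8 CPM over all libraries (log2 fold change -0.03 ± 0.16 SE). Smad3 was at 53.6 to 76.4 CPM in wildtype and 44.3 to 51.97 CPM in mutant libraries, without overlap (adjusted p = 0.234). The shared partner Smad4 was at 87.1, 71.2 and 67.1 CPM and 103, 103 and 108 CPM. Its groups did not overlap, and the adjusted p was 0.0541 (log2 fold change 0.48 ± 0.13 SE), and 0.00913 without W1.

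None of the inhibitory Smads and Smurfs passed the test. Smad6, which blocks the BMP branch, was at 16.4, 16.9 and 19.8 CPM in wildtype and 12, 11.1 and 9.99 CPM in mutant libraries (log2 fold change -0.68 ± 0.18 SE, adjusted p = 0.0551, and 0.0488 without W1). Smad7, which blocks both branches, was at 32.5, 30.8 and 24.8 CPM and 18.9, 19.5 and 22.4 CPM (log2 fold change -0.53 ± 0.16 SE, adjusted p = 0.083). The genotypes did not overlap for either gene. Smurf1 and Smurf2, ubiquitin ligases for Smads and receptors, were at 62.5 to 106 CPM and 35.7 to 47.3 CPM over all libraries, with log2 fold changes of 0.37 ± 0.16 SE and 0.28 ± 0.13 SE.

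The Id genes encode inhibitors of basic helix-loop-helix transcription factors, and 2 of 4 fell (50%), against 4.46% of all tested genes. Id2 (ENSMUSG00000020644, chr12:25093799-25097140, minus strand) had the smallest p of the 43 genes. It stood at 50.05, 69.3 and 63.97 CPM in W1 to W3 and at 18.7, 19.2 and 20.5 CPM in M1 to M3. It fell 3.14-fold, and the 3 mutant libraries lay close together (log2 fold change -1.65 ± 0.16 SE, adjusted p = 0.000976). Id4 (ENSMUSG00000021379, chr13:48261228-48266026, plus strand) stood at 8.51, 11.98 and 10.3 CPM and at 2.02, 2.39 and 3.78 CPM. It fell 3.74-fold, without overlap (log2 fold change -1.90 ± 0.34 SE, adjusted p = 0.0119). The call of Id4 ended without M2 (0.0589) or W2 (0.0511).

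Id1 and Id3 had positive log2 fold changes and did not pass the test. Id1 was at 10.5, 22.5 and 16.9 CPM in wildtype and 24.7, 44.1 and 44.1 CPM in mutant libraries, without overlap (log2 fold change 1.18 ± 0.32 SE, adjusted p = 0.0547, and 0.0458 without M1). Id3 was at 3.12, 13.4 and 8.34 CPM and 20.6, 15.1 and 23.7 CPM, also without overlap (log2 fold change 1.26 ± 0.46 SE, adjusted p = 0.138). Counts of Id1 were 0.21, 0.324 and 0.263 times those of Id2 in W1 to W3 and 1.32, 2.3 and 2.15 times in M1 to M3, for a pair chosen after its values were seen. Per length, Id2 ranked 1 of the 47 genes in wildtype corneas at a mean level of 25.1 RPKM and 16 in mutant corneas at 7.98 RPKM. Id1 ranked 5 at 14.3 RPKM and 2 at 32.5 RPKM.

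**Figure D5:**
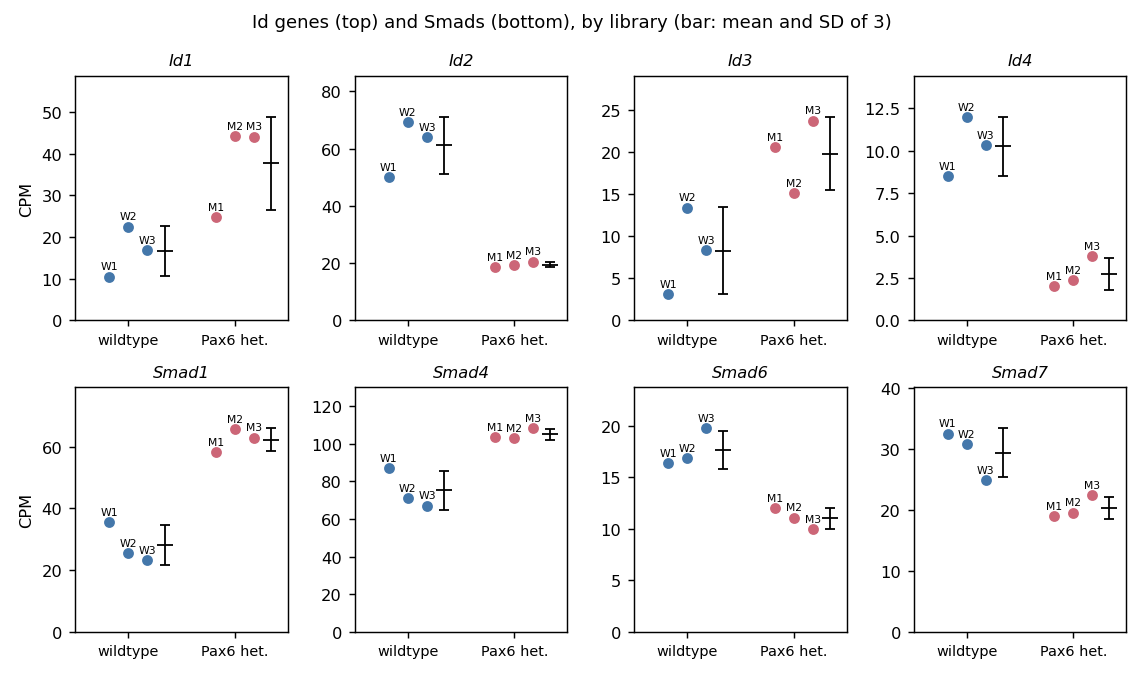
CPM in each library of the 4 Id genes (top) and of Smad1, Smad4, Smad6 and Smad7 (bottom), with points for libraries and a bar for the mean and SD of 3 libraries per genotype. Id2, Id4, Smad6 and Smad7 were lower and the other 4 genes higher in every mutant than in every wildtype library, and Id2, Id4 and Smad1 alone of the 8 passed an adjusted p of 0.05.

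The start regions of Smad1 and of the Id genes that fell are shown because Smad1 is the BMP mediator that rose and Id genes are known BMP targets. They come from RefSeq on GRCm38.p6, at chr8:79399379-79399678 (Smad1, minus strand), chr12:25096043-25096342 (Id2, minus strand) and chr13:48260866-48261165 (Id4, plus strand), with capitals as for the receptors. The RefSeq window of Id2 lies inside the longer GENCODE span of the gene.
Smad1: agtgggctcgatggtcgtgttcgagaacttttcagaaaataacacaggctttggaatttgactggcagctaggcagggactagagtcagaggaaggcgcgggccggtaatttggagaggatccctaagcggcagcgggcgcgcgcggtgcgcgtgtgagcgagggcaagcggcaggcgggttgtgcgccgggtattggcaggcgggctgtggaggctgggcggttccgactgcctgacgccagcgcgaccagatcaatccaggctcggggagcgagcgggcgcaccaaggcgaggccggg
Id2: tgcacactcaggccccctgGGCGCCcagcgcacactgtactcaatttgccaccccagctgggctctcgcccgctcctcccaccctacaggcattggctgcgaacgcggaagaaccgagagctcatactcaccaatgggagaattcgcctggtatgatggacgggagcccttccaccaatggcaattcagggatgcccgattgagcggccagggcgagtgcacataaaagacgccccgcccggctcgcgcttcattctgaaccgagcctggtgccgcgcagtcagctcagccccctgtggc
Id4: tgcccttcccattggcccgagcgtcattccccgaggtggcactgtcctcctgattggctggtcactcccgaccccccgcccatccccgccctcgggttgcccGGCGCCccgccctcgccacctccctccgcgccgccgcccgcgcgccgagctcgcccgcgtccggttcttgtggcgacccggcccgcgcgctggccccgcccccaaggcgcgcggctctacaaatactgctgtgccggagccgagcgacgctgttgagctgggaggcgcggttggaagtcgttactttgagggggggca
Id2 and Id4 held GGCGCC 1 time each, and Smad1 held neither motif. RefSeq start regions were matched for 34 of the 47 genes. GGCGCC was found in 11 of them (32.4%) and in 12% of 27018 genes with such a region, and CAGACA in 23.5% and 21%. The median GC content was 66.5% and 52.7%. All 3 genes that fell held GGCGCC and none of the 6 matched genes that rose did, with a median GC content of 73.3% and 62.7%. A match is a string of letters in this window and no evidence of binding.

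Among 119 other genes of the pathway in 7 lists, 81 could be tested, of which 9 rose (11.1%) and 7 fell (8.64%). Over all tested genes 5.59% rose and 4.46% fell. No other ligand was called, and 3 of 22 could be tested. Of 7 tested receptors and co-receptors Cd109, a membrane protein that binds TGF-beta receptors, stood at 71.8, 84.5 and 77.2 CPM in W1 to W3 and 21.3, 15.6 and 15.1 CPM in M1 to M3. Cd109 thus fell, without overlap (log2 fold change -2.17 ± 0.17 SE, adjusted p = 0.000605). Rgmb, a BMP co-receptor, rose from 41.04 to 47.1 CPM in wildtype to 64.1 to 75.5 CPM in mutant libraries (adjusted p = 0.0191).

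Of 10 tested antagonists and ligand carriers, Crim1, a membrane protein that tethers BMPs, fell from 485, 392 and 396 CPM to 270, 257 and 265 CPM (adjusted p = 0.0135). The proteoglycan Dcn, which binds TGF-beta and is itself among the stromal markers, rose from 16.1, 55.2 and 30.8 CPM to 321, 174 and 75.6 CPM (log2 fold change 2.48 ± 0.58 SE, adjusted p = 0.0321), with a log2 fold change of 1.88 without M1. Of 13 ligand activation and processing genes 2 rose (15.4%). They were the secreted protease Htra1 (log2 fold change 1.70 ± 0.29 SE, adjusted p = 0.0102) and Bmp1, a procollagen and chordin protease and not a BMP ligand (0.68 ± 0.17 SE, adjusted p = 0.0431). Of 17 Smad cofactors and regulators 1 rose and 1 fell (5.88% each), near the shares over all tested genes. Fkbp1a, which binds type I receptors, rose from 1.53 to 3.86 CPM to 6.38 to 14.3 CPM (adjusted p = 0.033). Zfyve9, the SARA adaptor of Smad2 and Smad3, fell from 52.2 to 70.2 CPM to 40.4 to 42.3 CPM (adjusted p = 0.0359).

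Of 21 tested TGF-beta target genes 4 rose (19%) and 3 fell (14.3%), against 5.59% and 4.46% of all tested genes. Tgfbi, a corneal matrix protein named for its induction by TGF-beta, fell from 1459, 1145 and 1127 CPM to 458, 546 and 409 CPM (log2 fold change -1.40 ± 0.17 SE, adjusted p = 0.00224). The matricellular gene Ccn1 fell from 62.9 to 81.1 CPM to 23.8 to 37.2 CPM (adjusted p = 0.00666), and the cell cycle inhibitor Cdkn1a from 62.05 to 80.6 CPM to 37.3 to 46.1 CPM (adjusted p = 0.0119). Lox, which crosslinks collagen, rose from 1.14 to 1.98 CPM to 6.98 to 15.4 CPM (log2 fold change 2.80 ± 0.42 SE, adjusted p = 0.00575). The other 3 that rose fall outside the naming rule and were chosen after their values were seen. They were Ccn2, the connective tissue growth factor (log2 fold change 2.17 ± 0.46 SE), and the collagen chains Col1a1 and Col1a2, which are also stromal markers. Col1a1 stood at 224, 138 and 164 CPM in wildtype and 2704, 1013 and 383 CPM in mutant libraries, a log2 fold change of 2.96 ± 0.63 SE, and of 2 without M1. Col1a2 stood at 89.2, 121 and 83.2 CPM and 1319, 530 and 206 CPM, a log2 fold change of 2.81 ± 0.59 SE, and of 1.91 without M1. M1 was thus far above M2 and M3 for both chains. Acta2, the actin of myofibroblasts and smooth muscle, likewise named after its values were seen, overlapped at 2.55, 16.1 and 13.5 CPM and 32.8, 13.8 and 22.2 CPM (adjusted p = 0.313).

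Of 10 tested BMP targets other than Id genes, Dlx3 alone was called (10%, against 10.1% of all tested genes). This homeobox gene of stratified epithelia fell from 9.99, 11.6 and 11.98 CPM to 0.551, 1.33 and 0.720 CPM (log2 fold change -3.68 ± 0.41 SE, adjusted p = 0.00165). Calls of the other pathway genes that ended with a library left out, with adjusted p in brackets, were those of Rgmb without M2, M3, W2 or W3 (0.0518 to 0.0985), Crim1 without M1, M2 or M3 (0.0542 to 0.0723), Dcn without M1, M2 or W3 (0.0883 to 0.1) and Bmp1 without M1, M2, M3, W2 or W3 (0.0938 to 0.14). The same held for Zfyve9 without M1, M2, M3, W2 or W3 (0.0992 to 0.142), Fkbp1a without M1, M2, M3 or W3 (0.0515 to 0.164), Ccn2 without M1, M3 or W3 (0.0586 to 0.0935), Col1a1 and Col1a2 without M2, W2 or W3 (0.0553 to 0.0877) and Cdkn1a without M1 or M3 (0.0507 to 0.0627).

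Annotated exons of 17 of the 47 genes overlap those of another gene, 4 of them called. For Ltbp2, Acvrl1, Fst and Id4 the gene with the largest overlap lies on the opposite strand and covers 9.34%, 2.98%, 2.51% and 4.44% of exon bases. Opposite-strand genes cover 47.3% of the exon bases of Fstl3 and 46.7% of those of Bmp5, and also overlap Crim1, Zfyve9, Ccn2, Lox and Cdkn1a. No source used here states whether counting used strand, so counts of these genes are uncertain.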

How the data were processed

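RNA-seq was done on 6 mouse cornea libraries, 3 per genotype. Per the labels' protocols, libraries were strand-specific, made from little input, and read from both ends. The submitters' processing notes list Trim Galore, HISAT2, SAMtools, HTSeq and edgeR and the build GRCm38. Their versions and the strand option of the counting were in no source used here. Raw counts per Ensembl gene were deposited, not normalized by the authors. The 5 HTSeq summary lines (53.3% of all entries) were left out. Of 55421 IDs, 55240 matched GENCODE M21.

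In R 4.3.3, edgeR 4.0.16 was run with filterByExpr (minimum count 10, minimum total 15, about 0.556 CPM in 3 libraries), TMM and the quasi-likelihood test on genotype alone, with Benjamini-Hochberg adjustment over 15209 genes. Bmp4 and Smad9 passed the filter in all mutant but not all wildtype libraries. Standard errors were derived from the fold change and its F statistic. Libraries of a genotype differed beyond sampling noise (chi-square over degrees of freedom 19.4 to 60.1). The scripts were tested on simulated data. Alternatives used DESeq2 1.42.0, limma 3.58.1, and other factors, filters, thresholds and libraries.

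The naming rule took members past adjusted p 0.05 or at 5 CPM or more in a group mean, members under the filter, and up to 4 called genes per pathway list with the smallest p. Other members (Bmp4, Bmp6, Inhba, Acvr2b, Bmpr1b, Bambi and Smad9) are named so that all are accounted for. Members, lists and tests were chosen with earlier results of these data known.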

Additional observations from a re-analysis of the deposited data

How the results depend on the processing

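No paired analysis was possible because the labels name the samples differently in each genotype; the numbers in M1 to M3 and W1 to W3 only follow the order of deposit and pair nothing. Under the 18 alternatives no called member changed direction. The groups of the called members did not overlap, so leaving out libraries could hardly reverse them, and a changed threshold leaves the fold change as it is. In contrast, 18 values of 8 members not called (Tgfb1, Bmp6, Inhba, Tgfbr3, Acvr2b, Fstl3, Bambi and Smad2) took the other sign. Among values of called members 174 stayed past the threshold and 42 did not, and among those of members not called 41 passed it and 515 did not. With DESeq2 the members Id1, Id3, Tgfb3, Fstl1, Smad4, Ltbp3 and Smad6 passed it. Of these, Id1, Tgfb3, Fstl1, Smad4 and Smad6 also passed with both limma-voom fits. With a single library left out, Tgfb3, Fstl1, Smad4, Ltbp3, Smad6 and Smurf1 passed without W1 only, and Id1 without M1 only. Members that rose numbered 15 with DESeq2, 14 with limma-voom and sample quality weights, 17 without a low-count filter and 4 at adjusted p 0.01, against 9, and 4 to 14 with a library left out. Members that fell numbered 1 at adjusted p 0.01, against 3, and 2 to 4 with a library left out. Of all genes, 1325 rose with DESeq2, 1588 without a filter and 307 at adjusted p 0.01, against 850, and 340 to 1227 with a library left out. The numbers that fell were 1033, 1137 and 261, and 343 at a log2 fold limit of 1, against 679, and 271 to 847 with a library left out. Leaving out M1 and W1 together, chosen after the data were seen, left 12 members called, 8 of them among the original 12. Apart from stricter limits, the cause of these changes was not tested. Members of few counts had wide errors, such as Bmpr1b (log2 fold change -1.12 ± 1.43 SE) and Inhba (-0.62 ± 1.18 SE), whose counts also differed between libraries of a genotype.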
